A study of Mus musculus with 13 samples.

Results

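The mitochondrial ribosomal protein genes, whose symbols begin with Mrpl or Mrps followed by a digit, were 78 of the 22442 genes counted in the Ribo-seq libraries. They were chosen by symbol alone, 49 Mrpl and 29 Mrps, and all 78 were also among the 21898 genes of the acRIP-seq libraries. Ribo-seq counts the fragments of mRNA that a translating ribosome protects from RNase I (ribosome-protected fragments, RPFs), and was made from 3 WT GV, 3 Nat10-ZcKO GV, 2 WT MII and 3 Nat10-ZcKO MII libraries. Nat10-ZcKO oocytes carry 1 floxed Nat10 allele beside a null allele (Nat10 lox/-). Zp3-Cre, a recombinase driven by a zona pellucida promoter, deletes the floxed allele once the oocyte grows. The loss of this copy thus does not cover the earliest follicle stages. All libraries are from the C57BL/6J background and from pooled oocytes, RPFs from batches of about 100. GV (germinal vesicle) oocytes are the fully grown oocytes arrested in prophase of meiosis, from 21-day-old females primed with PMSG, and MII oocytes are the ovulated oocytes from females that also received hCG. acRIP-seq, which pulls down mRNA fragments with an antibody, was made from about 2000 WT GV oocytes per library with anti-ac4C, an antibody against N4-acetylcytidine, in 1 library and with anti-IgG in the other. ac4C is the base modification that NAT10 makes.

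The mitochondrial ribosome makes the few inner membrane proteins of oxidative phosphorylation that the mitochondrial genome encodes. Its RNAs come from the mitochondrial genome, but all of its proteins are nuclear products that cytosolic ribosomes translate and that are then imported, so RPFs on these mRNAs come from cytosolic ribosomes. Part of the set has counterparts in the bacterial ribosome and the rest was gained in mitochondria. In the oocyte, mitochondria are numerous and round, are inherited through the egg, and supply ATP during meiotic maturation, when transcription is silent and protein output depends on stored mRNAs.

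By the position of the protein in the mitochondrial ribosome, 51 members belong to the large subunit and 27 to the small subunit. Mrps30 and Mrps18a keep a small subunit symbol although their products sit in the large subunit. 45 members have a bacterial counterpart and 33 do not. The genes lie on 17 chromosomes, with 11 on chromosome 11 and 8 on chromosome 17, and their coding sequences (CDS) are short, 261 to 1368 bases with a median of 601.5.

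Promoter sequence was available from RefSeq (GRCm38.p6) as windows from 250 bases before to 50 after the start, 75 windows for 69 members. Letters of 4 known motifs were searched on both strands. The ETS core CCGGAAGT was in 16.0% of the member windows and 3.89% of all 32851 windows, and the motif of NRF1, a regulator of nuclear genes for mitochondria, written here as GCGC, any 2 bases and GCGC again, was in 18.7% and 6.23%. The YY1 core AAGATGGC was in 16.0% and 2.75%, and the TATA box TATAAA in 6.67% and 13.6%. Counted per gene, over 69 members and 16527 coding genes, the ETS core was in 17.4% and 5.94%. By that count the NRF1 letters were in 20.3% and 10.0%. The YY1 core was in 17.4% and 3.64%, and the TATA box in 7.25% and 14.3%. A match is a description of the letters in the window and no binding was measured here. The stretches below hold the motif in capitals, on the strand of the gene, and are shown for members named in the results that follow: Mrpl12 at chr11:120484546-120484575 (plus strand), Mrpl17 at chr7:105811117-105811146 (minus), Mrpl9 at chr3:94443298-94443327 (plus), Mrpl3 at chr9:105053238-105053267 (plus), Mrps27 at chr13:99344726-99344755 (plus) and Mrps18c at chr5:100798591-100798620 (plus). The first 3 hold the NRF1 letters, Mrpl3 the ETS core, and the last 2 the ETS core as read on the opposite strand.
Mrpl12: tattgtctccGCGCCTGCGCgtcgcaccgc
Mrpl17: aggctctgatGCGCACGCGCaaacgcggta
Mrpl9: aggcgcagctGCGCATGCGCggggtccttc
Mrpl3: tgagaaacggaCCGGAAGTggcccggctgt
Mrps27: gtggtaggaccACTTCCGGcggaggcgggc
Mrps18c: cgggtcacgtgACTTCCGGcccgggaagcg

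Depth was uneven. The libraries held 42360 to 279464 RPF counts, except WT MII replicate 2, which held 4815. Nat10 itself (ENSMUSG00000027185.15, chr2:103721256-103761270) had 8, 11 and 3 counts in WT GV, 4, 1 and 5 in Nat10-ZcKO GV, 1 and 5 in the MII libraries of WT and 6, 3 and 2 in those of Nat10-ZcKO, so the groups overlapped and counts this low do not check the genotype labels. The oocyte markers were 12 genes such as those of the zona pellucida, the egg cortex, secreted factors and oocyte regulators. They took 5.26% to 7.21% of RPFs in WT GV but 0.0142% in Nat10-ZcKO GV replicate 1 and 0.0415% in WT MII replicate 2. In Nat10-ZcKO GV replicates 2 and 3 they took 1.41% and 10.6%, and in the other MII libraries 1.10% to 1.38%. In Nat10-ZcKO GV replicates 1 and 2, Padi6, an egg cortex protein, had 2 and 196 counts against 12204 in replicate 3. Fasn, the fatty acid synthase of lipogenic cells, had 298 and 86 counts against 36. These replicates held 42360, 51709 and 277124 counts in all. Some oocyte markers were not low in replicate 2, where Oosp1 had 44 counts against 49 in replicate 3, and Mos 4 in both. Granulosa and cumulus markers (15 genes) ranged from 0.300% to 1.14% in GV and from 0 to 0.623% in MII libraries. Adipocyte markers (16 genes) took 1.76%, 0.367% and 0.0220% in Nat10-ZcKO GV replicates 1, 2 and 3. They took 0.0371% to 0.0478% in WT GV and 0.0257% to 0.166% in MII libraries. These 3, WT MII replicate 2 with replicates 1 and 2 of Nat10-ZcKO GV, are called the 3 libraries that stand apart, and results are given with and without them. In pooled oocytes, fewer cells of a type and less RNA per cell cannot be told apart.

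The members together took about 0.2% to 0.3% of RPFs in GV oocytes and about 0.1% in MII oocytes. In WT GV libraries they had 297, 652 and 246 counts, which was 0.204%, 0.233% and 0.256% of each library (0.231 ± 0.0259%, SD, n = 3). In Nat10-ZcKO GV libraries they had 142, 113 and 673 counts, or 0.335%, 0.219% and 0.243% (0.266 ± 0.0616%, SD, n = 3). The 2 GV groups overlapped. In WT MII the members had 135 and 5 counts, 0.1001% and 0.104% (0.102 ± 0.00263%, SD, n = 2), where the exact (Clopper-Pearson) 95% interval of the second library is 0.0337% to 0.242%. In Nat10-ZcKO MII they had 234, 199 and 181 counts, 0.124%, 0.136% and 0.113% (0.124 ± 0.0111%, SD, n = 3). The 2 MII groups did not overlap, although the interval of WT MII replicate 2 spans all the Nat10-ZcKO MII values.

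**Figure D1:**
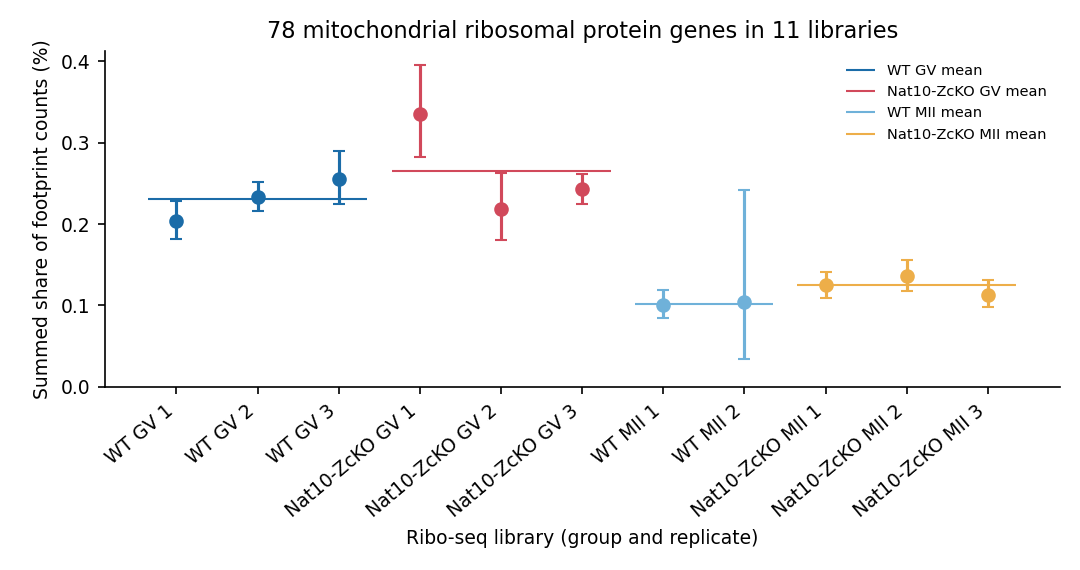
Share of all RPF counts on the 78 mitochondrial ribosomal protein genes (percent, vertical axis) in each of the 11 libraries by group (horizontal axis), with the exact 95% interval of each library from counting error. All 6 GV libraries, at 0.204% to 0.335%, lie above all 5 MII libraries, at 0.1001% to 0.136%.

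Every GV library thus lay above every MII library, although the interval of WT MII replicate 2 (0.0337% to 0.242%) reaches into the GV range. The mean share was 2.27 ± 0.261 times higher in GV than in MII for WT and 2.13 ± 0.530 times for Nat10-ZcKO (SD carried over from the groups), and 0.248 ± 0.0463% (n = 6) against 0.115 ± 0.0147% (n = 5) over both genotypes. Weighted per coding length, the members took 0.403% to 0.735% of TPM (counts divided by CDS length and scaled to one total) in GV and 0.211% to 0.284% in MII. Without the 10 genes that took the most counts over the 11 libraries together, the share was 0.284% to 0.396% in GV and 0.106% to 0.191% in MII, again without overlap. With library sizes scaled by TMM, the WT fold became 4.72. The 5 counts of WT MII replicate 2, all on Mrps26, were then set against an effective size 11.8 times its total. The Nat10-ZcKO fold fell to 1.49, with GV replicate 2 at 0.190% and MII replicate 3 at 0.187%.

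The genes of the large subunit were apart between stages, and those of the small subunit only without WT MII replicate 2. Large subunit genes took 0.129% to 0.203% of RPFs in GV libraries and 0 to 0.0934% in MII libraries. The small subunit genes took 0.0677% to 0.132% in GV, and 0.0274% to 0.104% in MII, where the highest value was that of WT MII replicate 2. Without that library the small subunit genes in MII reached at most 0.0463%. The ratio of large to small subunit counts was 1.54 to 2.23 in GV and 1.69 to 2.65 in the 4 MII libraries with a count on the large subunit, so the ranges overlapped.

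RPFs were spread over the set. 76 members had at least 1 of the 2877 counts, 14 had a count in each of the 10 libraries other than WT MII replicate 2, and 10 had fewer than 10 counts in all. Mrpl23 and Mrps36 had no count in any library. Mrps36 has 3 of the 5 pseudogenes that GENCODE M21 names after members, and the handling of reads shared with pseudogenes is not given in the sources used here, so its lack of counts is uncertain. Its product is also known as a subunit of the ketoglutarate dehydrogenase complex. Per library, 59 to 70 members had a count in WT GV, 54, 37 and 68 in Nat10-ZcKO GV, 50 and 1 in WT MII and 45 to 53 in Nat10-ZcKO MII. Thinned in expectation to 4815 counts, the GV libraries would show 8.77 to 13.9 members and the MII libraries 1 to 5.89.

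Levels in WT GV oocytes, compared between genes per coding length, covered a wide range with 1 member far above the rest. The median member was at 45.0 TPM, against 0.660 TPM over all genes with a CDS length. Mrps25, a small subunit protein of mitochondria without a bacterial counterpart, led with 326, 504 and 502 TPM (444 ± 102, SD, n = 3) and lies at chr6:92169525-92184033. Its lowest library was above the highest library of the next member, Mrpl34, at 223, 284 and 246 TPM (251 ± 31.0). The coding sequence of Mrpl34, the counterpart of bacterial L34, is only 276 bases long, and its level rests on 7, 17 and 5 counts.

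Below these the neighbours in the order could not be separated. Mrps24, the counterpart of bacterial S3, was at 189 ± 49.5 TPM. Mrpl12, which forms the stalk that recruits translation factors, was at 163 ± 61.5 TPM. Mrpl58, a peptidyl-tRNA hydrolase built into the large subunit, was at 159 ± 68.0 TPM. Mrpl38 and Mrps22, both particular to mitochondrial ribosomes, followed. Mrpl38 was at 185, 134 and 131 TPM (150 ± 30.5), and Mrps22, a gene in which inherited variants cause ovarian failure in people, at 81.6, 116 and 189 TPM (129 ± 54.8). The last 5 of the 12 highest, Mrpl57, Mrps17, Mrpl17, Mrpl24 and Mrpl28, had means from 102 to 123 TPM. Mrpl57 owed its place to 1 library, with 28.7, 30.2 and 310 TPM from 1, 2 and 7 counts. Mrpl30, the counterpart of bacterial L30, had 3, 0 and 0 counts in WT GV, 0, 0 and 6 in Nat10-ZcKO GV, none in the MII libraries of WT and 0, 0 and 1 in those of Nat10-ZcKO, too few to compare groups.

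**Figure D2:**
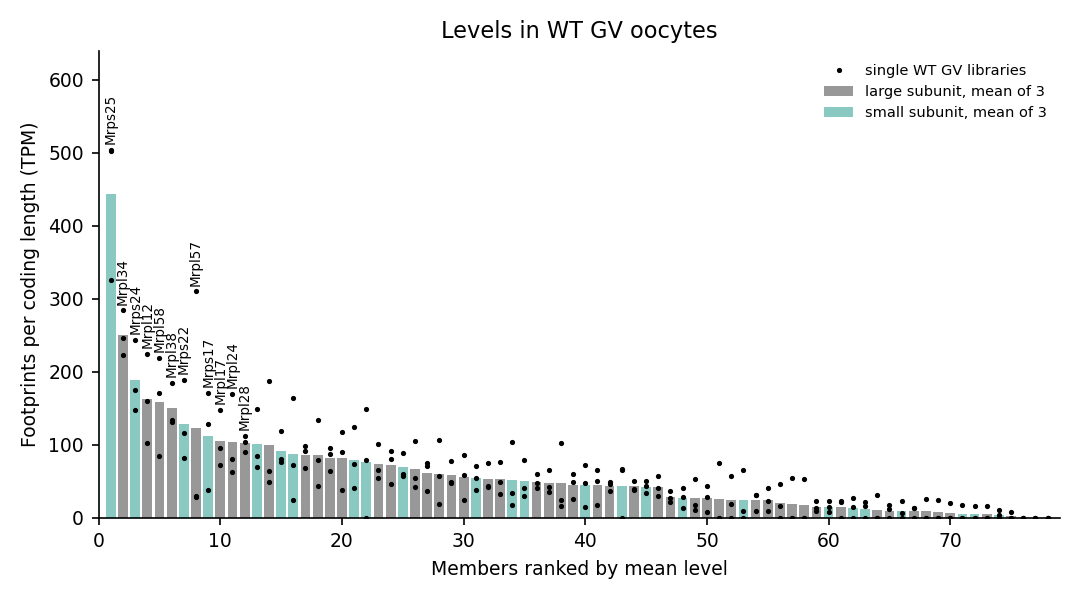
Level of each of the 78 members in WT GV oocytes as RPF counts per coding length (TPM, vertical axis), ranked by the mean of 3 libraries (horizontal axis), with bars for means coloured by subunit and points for single libraries. Mrps25 stands at 444 TPM and Mrpl34 at 251 TPM, and most other members lie under 100 TPM with overlapping libraries.

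The comparison of MII with GV asks how RPFs on these mRNAs changed over meiotic maturation. RPFs were not divided by mRNA levels, so less mRNA and fewer ribosomes per mRNA cannot be told apart. Most members were lower in MII, a few were higher, and at these depths edgeR could test few of them. By mean CPM (counts scaled to the library total), 64 of the 76 members with a count were lower in MII, against 69.4% of the 13685 genes with a count. With counts summed over the libraries of a stage and 0.5 added, the 68 members with at least 10 counts had a median log2 ratio of -1.11, and 55 of them were below 0. Over the 8678 genes past the same minimum it was -0.38, and 58.7% were below 0. Without the 3 libraries that stand apart, 56 of 76 members had a lower mean in MII (55.9% of genes), and the median of the 66 members with at least 10 counts was -1.08 against -0.19 over 8094 genes. These are counts over the set and carry no test.

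**Figure D3:**
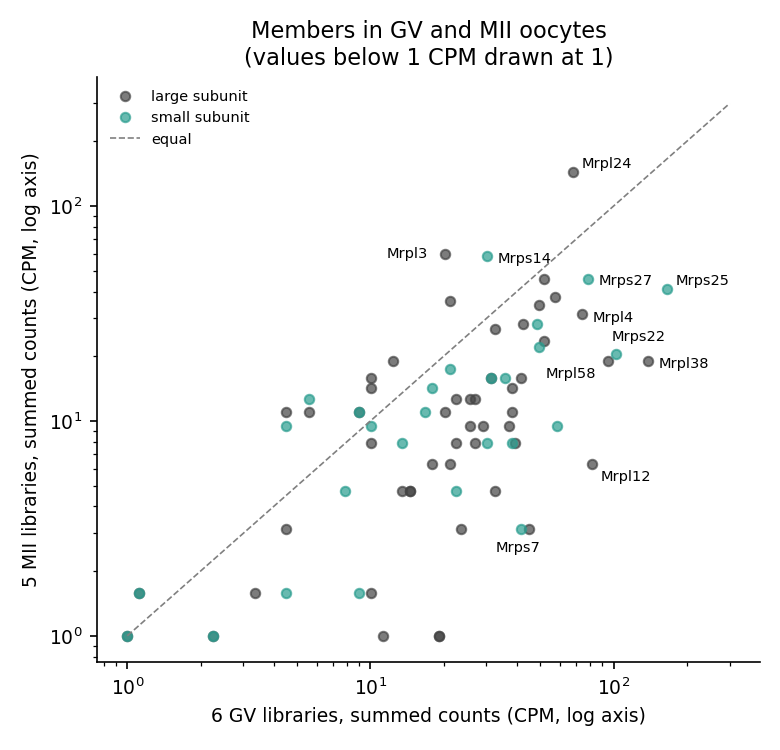
Level of each member in GV oocytes (counts summed over 6 libraries, CPM, horizontal log axis) and in MII oocytes (5 libraries, vertical log axis), coloured by subunit, with a dashed line for equal levels and levels under 1 CPM drawn at 1. Most points lie below the line, Mrpl38 and Mrpl12 far below it, and Mrpl24, Mrpl3 and Mrps14 above it.

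Mrpl38 (chr11:116131817-116138868) showed the clearest drop. It had 24, 33 and 11 counts in WT GV and 6, 5 and 45 in Nat10-ZcKO GV, which was 114 to 165 CPM and 96.7 to 162 CPM. In WT MII it had 3 and 0 counts (22.2 and 0 CPM), and in Nat10-ZcKO MII 3, 5 and 1 (6.26 to 34.1 CPM). All 6 GV libraries were above all 5 MII libraries, and the GV libraries that stand apart were within or just under the range of the others. In the fit over both genotypes (edgeR quasi-likelihood test, Benjamini-Hochberg adjustment over 2000 genes), the log2 fold change was -2.85 (SE 0.67, adjusted p = 0.000419), where the median over all genes tested was -0.35. The call held with each library left out in turn, at adjusted p-values of 5.2e-05 to 0.0135, and without the 3 libraries that stand apart (log2 fold change -3.18, adjusted p = 2.2e-05). The call was lost without a filter on low counts (adjusted p = 0.0723). Only the GV libraries of Mrpl38 were high enough for that filter. It was thus admitted through the stage in which it is high, and the call is no independent support.

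In that fit 15.2% of genes were called higher and 24.5% lower in MII, and 3 members passed the filter. Besides Mrpl38 these were Mrps27, a small subunit protein with RNA-binding repeats, and Mrpl24, which in bacteria starts the assembly of the large subunit. Mrps27 had 9, 18 and 9 counts in WT GV, 7, 5 and 22 in Nat10-ZcKO GV, 2 and 0 in the MII libraries of WT and 2, 22 and 3 in those of Nat10-ZcKO. Its MII libraries were low except Nat10-ZcKO replicate 2, at 150 CPM, and its log2 fold change was -1.28 (SE 0.62, adjusted p = 0.0851, edgeR). Without that library the same test gave -2.50 (adjusted p = 0.0165, with 19.7% of genes called lower and 12.3% higher). Mrps27 then passed the filter through GV libraries only, the stage in which it is high, so that call is no independent support. DESeq2 also called Mrps27 lower, where it called 44.5% of genes lower and 16.5% higher. 37.0% of the coding bases of Mrps27 overlap an exon of another gene on the opposite strand, and whether the counting used strand is not given in the sources used here.

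Mrpl24 (chr3:87919506-87923672) went the other way in 4 of the 5 MII libraries. It had 6, 24 and 3 counts in WT GV, 3, 1 and 24 in Nat10-ZcKO GV, 15 and 0 in the MII libraries of WT and 33, 14 and 29 in those of Nat10-ZcKO. That was 19.3 to 86.6 CPM in GV libraries and 95.4 to 182 CPM in MII libraries other than WT replicate 2, where no count allows up to 623 CPM at the limit of 3 counts. The log2 fold change was 0.94 (SE 0.58, adjusted p = 0.176, edgeR), so the difference was not past the threshold. The exons of Rrnad1 on the opposite strand cover 40.6% of its coding bases.

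Relaxing the filter to at least 10 counts in at least 2 libraries brought 20 members into the same test (3863 genes, 15.4% called higher and 17.1% lower), and 6 were called, all lower in MII. These 6 reached 10 counts in GV libraries only, so the filter admitted them through the stage in which they are high, and their number is no support. They were Mrpl12 (-3.59, SE 0.87, adjusted p = 0.000879), Mrpl35, the counterpart of bacterial L35 (-3.15, adjusted p = 0.0188), Mrpl38 (-2.64, adjusted p = 0.00305), Mrps24 (-2.43, adjusted p = 0.0214), Mrpl58 (-2.08, adjusted p = 0.0221) and Mrps22 (-1.96, adjusted p = 0.0264). Mrpl12 had 7, 21 and 10 counts in WT GV and 2, 11 and 22 in Nat10-ZcKO GV, against 1 and 0 in the MII libraries of WT and 0, 3 and 0 in those of Nat10-ZcKO. Its GV libraries, at 47.2 CPM and above, did not overlap the MII libraries, at up to 20.4 CPM. Mrps24 had 10, 16 and 9 counts in WT GV, 7, 0 and 10 in Nat10-ZcKO GV and at most 3 in any MII library, and Nat10-ZcKO GV replicate 2 overlapped with MII. Mrpl35 had 2, 13 and 3 counts in WT GV, 0, 0 and 22 in Nat10-ZcKO GV and at most 1 in any MII library, so the stages overlapped at 0.

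Mrps22 and Mrpl58 depended on which GV libraries were counted. Mrps22 (chr9:98588730-98601660) had 10, 27 and 15 counts in WT GV and 0, 2 and 37 in Nat10-ZcKO GV, then 3 and 0 in the MII libraries of WT and 6, 4 and 0 in those of Nat10-ZcKO. Mrpl58 had 6, 23 and 10 counts in WT GV and 2, 2 and 42 in Nat10-ZcKO GV, then 2 and 0 in the MII libraries of WT and 2, 7 and 1 in those of Nat10-ZcKO. For Mrps22, only Nat10-ZcKO GV replicate 1, at 0, overlapped with MII. For Mrpl58, Nat10-ZcKO MII replicate 2, at 47.7 CPM, lay above WT GV replicate 1 (41.2 CPM) and above the first 2 Nat10-ZcKO GV libraries (47.2 and 38.7 CPM). Mrps25 had 19, 56 and 19 counts in WT GV, 2, 3 and 49 in Nat10-ZcKO GV, 9 and 0 in the MII libraries of WT and 12, 3 and 2 in those of Nat10-ZcKO, and its GV libraries that overlapped with MII were Nat10-ZcKO replicates 1 and 2. These 2 also had low oocyte marker shares, and the part of this in the results was not tested. Without the 3 libraries that stand apart, edgeR gave -2.18 (SE 0.46, adjusted p = 0.000306) for Mrps25 and -2.79 (SE 0.59, adjusted p = 0.000299) for Mrps22, in a fit that called 36.3% of genes lower and 33.9% higher. Without WT MII replicate 2 alone, 5 of 7 members tested were called lower, Mrpl38, Mrpl12, Mrps25, Mrps22 and Mrpl4, where 24.1% of genes were lower and 25.7% higher. The filter admitted these 5 through GV libraries, the stage in which they are high, so their number is no support. Mrps25 and Mrps22 passed the filter of the fit without the 3 libraries in the same way. Their p-values in that fit are no independent support either.

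**Figure D4:**
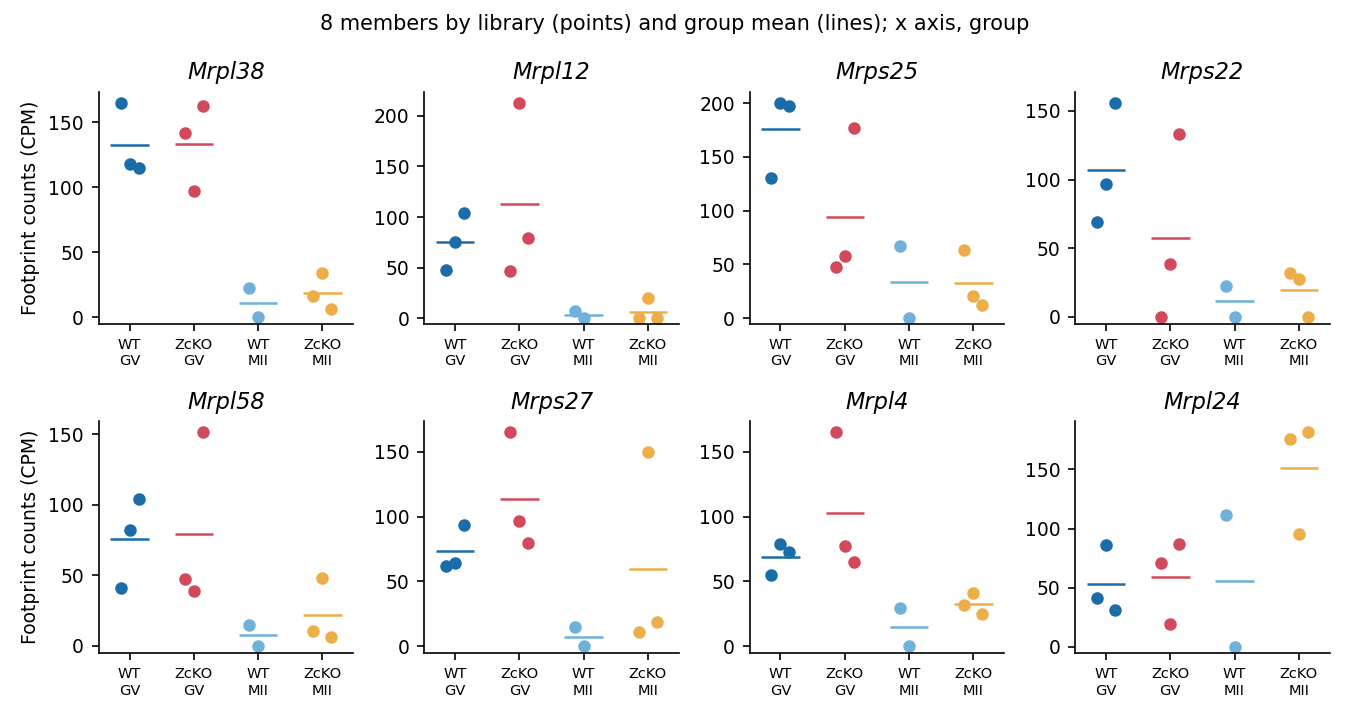
RPF level in CPM (vertical axis) of 8 members in each library (points) and as group means (lines) for WT and Nat10-ZcKO GV and MII oocytes (horizontal axis). Mrpl38 lies at 96.7 to 165 CPM in GV and at 0 to 34.1 CPM in MII, whereas Mrpl24 is higher in the MII libraries other than WT replicate 2, at 0.

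Over both genotypes, 5 members had every GV library above every MII library, against 3.59% of genes, and none had the reverse, against 0.329%. These were Mrpl38, Mrpl12, Mrpl4, Mrpl11 and Mrps7, of which Mrpl11 was named after its values were seen. Mrpl4, the counterpart of bacterial L4 at the exit tunnel, had 8, 22 and 7 counts in WT GV, 7, 4 and 18 in Nat10-ZcKO GV, 4 and 0 in the MII libraries of WT and 6, 6 and 4 in those of Nat10-ZcKO, so GV was at 55 to 165 CPM and MII at 0 to 40.9 CPM. Mrps7, which organises the head of the small subunit, had 3 to 11 counts in each GV library and at most 1 in each MII library. Without the 3 libraries that stand apart, 16 members lay wholly lower in MII (11.2% of genes) and 1, Mrpl24, wholly higher (9.3%).

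Within WT, 32 members lay wholly lower in MII (23.7% of genes) and none wholly higher (1.16%), a comparison in which WT MII replicate 2 is at 0 for every member but Mrps26. In edgeR's WT fit (2045 genes, 9.98% called higher and 11.5% lower) 6 members were tested and none was called, with 3 lower at an unadjusted p under 0.05. Mrpl38 was at -2.21 (SE 0.95, adjusted p = 0.0719), Mrpl12 at -2.84 (SE 1.18, adjusted p = 0.0649) and Mrps22 at -1.83 (SE 0.92, adjusted p = 0.126). The WT calls hung on the scaling and on the 2 MII libraries. In the fits below, the members called lower passed the filter through GV libraries, where they are high, so their numbers are no support. DESeq2 called 5 of the 6 lower, but it called 41.3% of all genes lower and 2.3% higher. Scaling by library size in edgeR called 4 of the 6, with 31.7% of genes lower and 13.5% higher. Without WT MII replicate 2, 6 of 14 members tested were called lower (24% of genes, with 20.9% higher), namely Mrpl38, Mrpl12, Mrps25, Mrps22, Mrps24 and Mrps7, and this leaves 1 WT MII library that is assumed to vary like the GV group. Without WT MII replicate 1 instead, 6 of 10 were called lower, where 72.5% of genes were and 4.93% were higher.

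Within Nat10-ZcKO, 15 members lay wholly lower in MII (8.92% of genes) and 5 wholly higher (8.71%). The higher ones were Mrpl24 and, named after their values were seen, Mrps23, Mrpl3, Mrps21 and Mrps14. Mrpl3, the counterpart of bacterial L3 near the peptidyl transferase centre, had 0, 1 and 1 counts in Nat10-ZcKO GV and 11, 7 and 15 in Nat10-ZcKO MII, and 8, 4 and 4 counts in WT GV and 5 and 0 in WT MII. The Nat10-ZcKO stages were apart for this gene and the WT stages overlapped. In edgeR's fit (2225 genes, 10.2% called higher and 6.02% lower) 3 members were tested and Mrpl38 was called lower, at -3.11 (SE 0.76, adjusted p = 0.0234). That call was lost without Nat10-ZcKO GV replicate 3 (adjusted p = 0.0857) or any 1 of the Nat10-ZcKO MII libraries (adjusted p = 0.0854 to 0.197). In the latter 3 fits no gene at all was called, and Mrpl38 remained at -3.41 to -2.44. Mrpl38 passed the filter of these fits through its GV libraries only. The same holds for the 6 members called lower in the next fit, and Mrpl3 passed there through MII libraries. These calls are therefore no independent support. Without Nat10-ZcKO GV replicates 1 and 2, which leaves 1 GV library that is assumed to vary like the MII group, 15 members were tested, with 6 called lower (Mrps25, Mrpl58, Mrpl38, Mrps22, Mrpl12 and Mrpl35) and 1 higher, Mrpl3 (3.74, SE 1.48, adjusted p = 0.0329), among 19.6% of genes lower and 19% higher.

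Whether the change with stage differed between genotypes was tested as an interaction over all 11 libraries (edgeR, 3863 genes, 0.0259% called higher and 0.88% lower). None of the 16 members tested was called, with 1 at an unadjusted p under 0.05, and DESeq2 called none of them either. This was Mrps26, a small subunit protein of mitochondria, at -4.82 (SE 2.14, adjusted p = 0.750). It had 1 count in each WT GV library, 4, 3 and 6 in Nat10-ZcKO GV, 0 and 5 in the MII libraries of WT and 0, 0 and 4 in those of Nat10-ZcKO, and the 5 counts of WT MII replicate 2 were 1038 CPM at that depth. Without that library the estimate was 1.28. Among the other members the standard errors ran from 1.43 for Mrpl24 to 3.03 for Mrps7 on the log2 scale, and in simulated data at the dispersion of these libraries this test recovered 0 of 138 genes changed 8-fold, so differences of that size could not be seen.

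The comparison of genotypes asks whether loss of NAT10 changed RPFs on these mRNAs. In GV oocytes edgeR called none of 1765 genes (0%), and none of the 4 members tested was at an unadjusted p under 0.05. DESeq2 called 3 genes and no member. Mrpl38 differed by 0.14 (SE 0.52, adjusted p = 0.943), Mrps22 by -0.31 (SE 0.77, adjusted p = 0.918), Mrps25 by -0.57 (SE 0.61, adjusted p = 0.900) and Mrps27 by 0.66 (SE 0.55, adjusted p = 0.900), as log2 of Nat10-ZcKO over WT. The directions of Mrpl38, Mrps22 and Mrps25 turned in some alternatives. Without Nat10-ZcKO GV replicate 3, edgeR called 197 genes higher and 188 lower of 1858, and none of the 3 members tested, of which Mrps25 was at -1.89 (SE 0.62, adjusted p = 0.0576). Without the 3 libraries that stand apart, which leaves Nat10-ZcKO GV replicate 3 alone, 28 members were tested and none was called (0.98% of genes higher, 1.03% lower). Mrpl58 was at 1.21 and Mrpl35 at 1.45 in that fit. Mrpl35 was at 79.4 CPM in Nat10-ZcKO GV replicate 3 against 13.7, 46.5 and 31.2 CPM in WT GV. Both values rest on that single Nat10-ZcKO library, whose spread cannot be measured, so no difference is read from them.

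By range alone, 4 members lay wholly higher in Nat10-ZcKO GV (4.01% of genes) and 3 wholly lower (4.82%). The higher ones were Mrps26 and, named after their values were seen, Mrpl36, Mrpl20 and Mrps9. The lower ones were Mrpl28, Mrpl34 and Mrps21, the last named in the same way. Mrps26 was at 3.58 to 10.4 CPM in WT GV and 21.7 to 94.4 CPM in Nat10-ZcKO GV, from 1 count per WT library. Mrpl28, the counterpart of bacterial L28, had 8, 19 and 6 counts in WT GV and 1, 0 and 12 in Nat10-ZcKO GV (55 to 68.0 CPM against 0 to 43.3 CPM). These shares were close to those over all genes. By mean TPM with 1 added, 19 members were more than 2-fold higher and 12 more than 2-fold lower in Nat10-ZcKO GV, of 78, against 22.4% and 12.1% of all genes.

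In MII oocytes edgeR called 0% of 2097 genes higher and 0.191% lower, and Mrpl24 alone was tested among the members, at 0.56 (SE 0.96, adjusted p = 0.997). No member was at an unadjusted p under 0.05, and DESeq2 called no member. By mean TPM with 1 added, 43 of 78 members were more than 2-fold higher in Nat10-ZcKO MII and 6 more than 2-fold lower, against 25.9% and 6.75% of all genes. That count rested on WT MII replicate 2, at 0 for 77 members. Without it 25 members were higher and 13 lower (16.8% and 10.0% of genes), and without WT MII replicate 1 the counts were 68 and 1, and Mrpl24 was called higher (adjusted p = 0.0125) where 47.3% of genes were and 4.31% were lower. 7 members lay wholly higher in Nat10-ZcKO MII (14.3% of genes) and none wholly lower (0.772%).

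Other genes of mitochondrial translation were taken from lists of 5 ribosomal proteins with other symbols, 17 translation factors and 30 assembly factors. The 5 other ribosomal proteins took 0.0307% to 0.0520% of RPFs in GV and 0 to 0.0204% in MII, apart like the members. In the edgeR fit over both genotypes, 2 of them were tested and both were called lower in MII. Dap3, a GTP-binding protein of the small subunit, was at -2.37 (SE 0.65, adjusted p = 0.00245), with 14, 47 and 16 counts in WT GV, 1, 6 and 29 in Nat10-ZcKO GV, 5 and 0 in the MII libraries of WT and 6, 1 and 1 in those of Nat10-ZcKO. Gadd45gip1, a large subunit protein, was at -1.77 (SE 0.64, adjusted p = 0.0199). Of the 17 factors, 3 were tested and 1 was called, Lrpprc, which stabilises mitochondrial mRNAs (-2.69, SE 0.67, adjusted p = 0.000825). Dap3, Gadd45gip1 and Lrpprc passed the filter through GV libraries, where they are high, so these calls are no independent support. Gfm1, the mitochondrial elongation factor G, was at 1.35 (SE 0.63, adjusted p = 0.0739) and Tsfm, elongation factor Ts, at 0.28 (SE 0.59, adjusted p = 0.715).

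The factors as a list overlapped between stages, at 0.0343% to 0.0645% in GV and 0 to 0.0537% in MII, and no assembly factor passed the filter of that fit. Assembly factors took 0.0447% to 0.176% in GV and 0.0368% to 0.935% in MII, where the highest MII value was WT replicate 2 with 30 counts on Gtpbp6. Gtpbp6, a GTPase of the large subunit, had 192, 5 and 8 counts in WT GV and 1, 3 and 2 in Nat10-ZcKO GV. It had 11 and 30 in WT MII against 1, 2 and 0 in Nat10-ZcKO MII (-7.50, SE 1.53, adjusted p = 0.00104, edgeR, MII genotype). The 30 counts are from WT MII replicate 2, which held 4815 counts in all, and the part of that library in the call was not tested. Gtpbp6 passed the filter of the MII genotype fit through WT libraries only, where it is high, so this call is no independent support. The 85 cytosolic ribosomal protein genes took 0.242% to 0.373% in GV and 0.0413% to 0.0981% in MII libraries other than WT replicate 2, at 1.10%. The 13 protein genes of the mitochondrial genome took 0.0447% to 0.290% in GV and 0 to 0.0511% in MII.

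In the acRIP-seq libraries, which have no replicate, the question is whether anti-ac4C recovered these mRNAs above anti-IgG. As a set the members were recovered less, relative to depth, than with anti-IgG. They had 3293 of 970997 gene counts with anti-ac4C (0.339%) and 569 of 116232 with anti-IgG (0.490%), a ratio of CPM of 0.693 (exact 95% interval 0.634 to 0.759). The interval covers counting error only. The large subunit genes were at 0.687 and the small subunit genes at 0.703. The ratio depends on the scaling. It was 0.772 with TMM factors and 1.08 when fragments on no feature, 17.1% of the anti-ac4C and 46.7% of the anti-IgG library, were kept in the totals. Cytosolic ribosomal protein genes were at 0.444 (0.421 to 0.470), the 5 other mitochondrial ribosomal proteins at 1.01, the translation factors at 0.801 and the assembly factors at 0.602.

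A ratio above 2 was reached by 28 of the 74 members with a count (53.3% of genes), and 22 of these had no anti-IgG count. With the lower 95% bound above 2 there were 4 members (3.69% of genes), Mrpl9, Mrps18c, Mrpl17 and Mrpl2, which had 108, 82, 78 and 65 anti-ac4C counts and none with anti-IgG. All are counterparts of bacterial ribosomal proteins, and the first 3 are those whose promoter letters are printed above. Against a limit of 3 anti-IgG counts these were at least 4.31-fold, 3.27-fold, 3.11-fold and 2.59-fold higher with anti-ac4C. Members without an anti-IgG count were ranked by their lower bound.

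At the other end, Mrps33 had 12 anti-ac4C and 11 anti-IgG counts, a ratio of 0.131 (0.0527 to 0.327). Mrpl51 had 40 and 26 counts (0.184, 0.110 to 0.314), Mrpl57 28 and 18 (0.186, 0.0994 to 0.357) and Mrps5 46 and 26 (0.212, 0.128 to 0.357). The first 3 of these are proteins particular to mitochondrial ribosomes, whereas Mrps5 is the counterpart of bacterial S5. The 55 members with at least 20 counts had a median ratio of 0.847, with 31 (56.4%) below 1, against 1.39 and 38.8% over 7117 genes. The whole interval was below 1 for 15 of these 55 (18.2% of genes) and above 1 for 9 (26.7%).

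**Figure D5:**
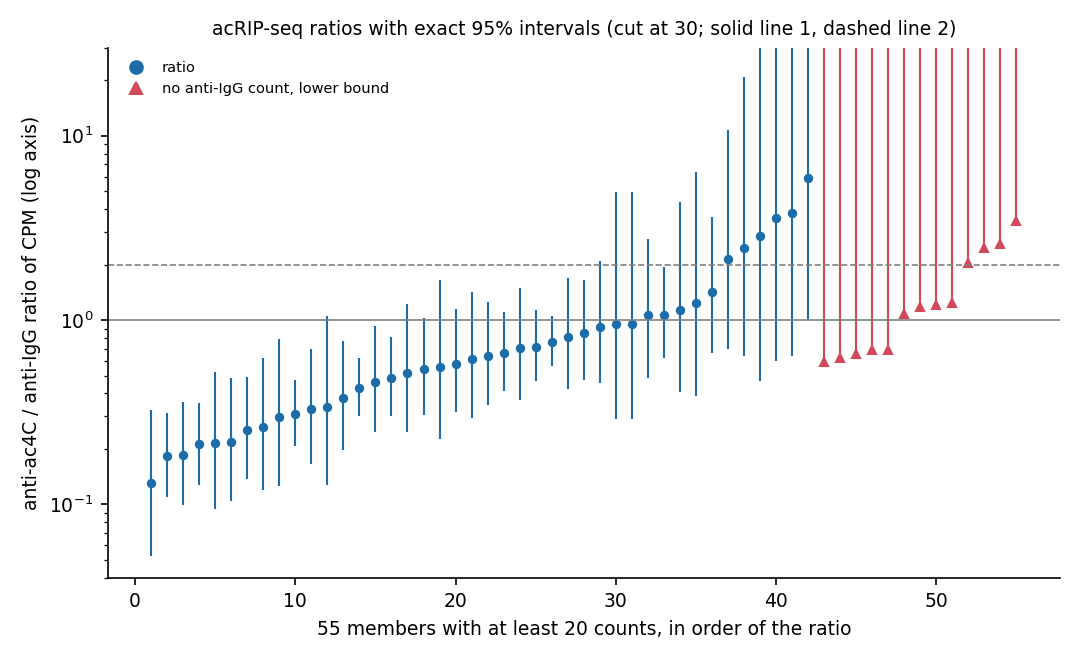
Ratio of anti-ac4C to anti-IgG CPM (vertical log axis) for the 55 members with at least 20 counts in both acRIP-seq libraries together, in order of the ratio (horizontal axis), with exact 95% intervals drawn up to 30 and triangles at the lower bound of members without an anti-IgG count. The intervals of 15 members end below 1 and those of 9 begin above 1, with Mrps33 lowest at 0.131.

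The members named as lower in MII had ratios on both sides of that of the set. Mrpl38 had 69 and 13 counts (0.635, 0.348 to 1.25), Mrps25 313 and 49 (0.765, 0.564 to 1.06) and Mrpl12 88 and 34 (0.310, 0.206 to 0.475). Of these 3, the interval was below 1 only for Mrpl12. Mrpl24, higher in most MII libraries, was at 0.661 (0.413 to 1.11). Mrpl30 had 24 and 1 counts, a ratio of 2.87 with an interval of 0.468 to 118. Across the 78 members, the WT GV level in TPM followed the anti-ac4C counts per kb of exon (Spearman's rho 0.56) more closely than the anti-IgG counts per kb (0.38), and was unrelated to CDS length (-0.04). These values are across genes, which are not replicates, and the deeper anti-ac4C library has less counting error.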

How the data were processed

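The files that the authors deposited hold raw counts, as whole numbers for each gene and 1 library per file, of RPFs on the CDS and of acRIP-seq fragments on genes. The submitters' processing notes name cutadapt, STAR, HTSeq and mm10. The handling of duplicates, pseudogenes and strand is not given in the sources used here. Rows that name no gene were left out of the totals (ambiguous fragments were 0.750% of the anti-ac4C and 0.392% of the anti-IgG library). Of 22442 identifiers, 22399 matched GENCODE M21 (GRCm38) without the version, 43 did not, and 40 of those matched had no CDS length and were left out of TPM.

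Shares, CPM, TPM and ratios were computed in Python 3.11.15 (numpy 2.4.6, scipy 1.17.1, pandas 2.3.3, figures with matplotlib 3.10.9), and intervals are exact at 95%. Counts were tested over all genes with edgeR 4.0.16 in R 4.3.3 (filterByExpr, TMM, glmQLFit and glmQLFTest, prior count 0.125, Benjamini-Hochberg adjustment, threshold 0.05), and DESeq2 1.42.0 was an alternative. SE was taken from the fold change on the log2 scale and the F statistic. Each fit held only the libraries compared, and the interaction all 11. Nothing in the labels says that replicates came from separate animals, so p-values measure the spread between these libraries. In simulated data with 200 genes changed 8-fold, the test of stage over both genotypes recovered 64 of the 70 changed genes tested, with 4 false calls among 2056 genes. The test of genotype recovered 88 of 106 in GV (1716 genes) and 31 of 155 in MII (2299 genes), and that of stage 56 of 157 in WT (2468 genes) and 72 of 119 in Nat10-ZcKO (2181 genes).

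Members and gene lists were chosen with earlier results of these data known, so no list is independent evidence. Genes were named by rule: Nat10, members tested in any comparison, the 12 highest in WT GV, the largest and smallest changes among members tested, the 4 highest and 4 lowest acRIP-seq ratios among members with at least 20 counts, Mrpl30, members without a count and those whose symbol names the other subunit. Genes of other lists were named where tested or among the 3 with most counts, and other names are marked in the text.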

Additional observations from a re-analysis of the deposited data

How the results depend on the processing

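Depth was the main limit, since 3 counts are 10.7 to 623 CPM depending on the library, and few members passed the filter of any test. The 3 libraries that stand apart were left out of the shares, the numbers of members with a count and the non-overlapping members only as a choice made after seeing the data. All values below are over the 78 members unless a gene is named, and the cause of a change was not tested unless the setting itself removes libraries or genes.

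The mean share of RPFs became, with TMM library sizes, 0.333% in WT GV, 0.0706% in WT MII and 0.182% in Nat10-ZcKO MII, and the GV over MII fold 4.72 in WT and 1.49 in Nat10-ZcKO. Without the 10 genes with most counts over all libraries it was 0.343%, 0.353%, 0.121% and 0.167% in WT GV, Nat10-ZcKO GV, WT MII and Nat10-ZcKO MII (WT fold 2.83), and as a share of TPM 0.463%, 0.568%, 0.234% and 0.258% (WT fold 1.98). With each library left out in turn it was 0.219% to 0.245%, 0.231% to 0.289%, 0.1001% to 0.104% and 0.119% to 0.130%, and the folds were 2.14 to 2.40 in WT and 1.85 to 2.32 in Nat10-ZcKO. GV stayed above MII in each of these.

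Members with at least 3 counts were 42.3, 31.3, 10 and 26 on average in the same 4 groups, and those expected at the shallowest depth 9.73, 10.9, 2.75 and 5.37. WT MII without replicate 2 had 50 members with a count, and leaving out 1 library gave 60.5 to 66, 45.5 to 61, 1 to 50 and 47 to 51. The ratio of large to small subunit counts in WT GV was 1.61 by the letter of the symbol and 1.59 by TPM, and over left-out libraries the 4 groups gave 1.69 to 1.80, 1.64 to 1.99, 0 to 2.65 and 1.95 to 2.35.

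Members called between stages were, in WT, 5 with DESeq2, 4 with library sizes alone, 6 without the 3 libraries that stand apart and 0 to 6 over left-out libraries. In Nat10-ZcKO they were 0 without a filter, 7 without the 3 libraries and 0 to 3 over left-out libraries, and over both genotypes 2 with DESeq2, 6 with the minimum of 10 counts in 2 libraries, 3 without the 3 libraries and 1 to 5 over left-out libraries. The 3 calls in Nat10-ZcKO came without GV replicate 1, where 330 of 2693 genes were called higher and 327 lower. Without a filter, 315 of 12702 genes were called higher and 108 lower in Nat10-ZcKO. For the other highest counts, the shares over all genes are given above. Genotype calls were 0 in GV over left-out libraries. In MII, and for the interaction, the only call came without WT MII replicate 1. That leaves 1 WT MII library, so neither call is read. Members past 2-fold between genotypes, among those with at least 10 counts, were 11 higher and 5 lower of 56 in GV (30.7% and 14.6% of 7137 genes) and 17 and 0 of 25 in MII (52.7% and 6.72% of 5342 genes), and a pseudocount of 10 left 3 lower in MII. With that pseudocount 2.83% of genes were lower in MII. Over left-out libraries and all 78 members, 12 to 24 were higher in GV (15.9% to 24.3% of genes). In GV 12 to 24 were lower (10.5% to 16.6%). In MII 25 to 68 were higher (16.8% to 43.4% of genes) and 1 to 13 lower (1.87% to 10.0%). Members whose stages did not overlap were 1 higher and 16 lower without the 3 libraries (9.3% and 11.2% of genes). Over left-out libraries they were 0 to 1 and 5 to 10, where the shares over all genes were not computed.

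Some directions turned. Between genotypes in GV, Mrpl38 was at -0.18 without a filter, -0.10 with all 11 libraries in 1 fit, -0.23 without WT GV replicate 3 and -0.38 without Nat10-ZcKO GV replicate 3 (-0.38 to 0.27 over left-out libraries). Mrps22 was at 0.13 without Nat10-ZcKO GV replicate 1 (-0.65 to 0.13 over left-out libraries) and 0.58 without the 3 libraries, and Mrps25 at 0.20 without the 3 libraries. Between stages in WT, Mrpl24 was at -0.033 with DESeq2 and -6.03 without WT MII replicate 1 (-6.03 to 0.99 over left-out libraries), and the interaction of Mrps26 was 1.28 without WT MII replicate 2 (-8.19 to 1.28).

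The summed acRIP-seq ratio was 0.772 with TMM factors, 5.79 without scaling for depth and 1.08 with fragments on no feature in the totals. Members above 2 were 4 by the lower 95% bound and 64 without scaling.

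Replicate numbers are shared between groups in the labels, but the deviations of libraries with the same number correlated at -0.048 to 0.153, so the numbers were not taken as pairs. With the replicate number as a block, members called were 0 in Nat10-ZcKO between stages, where Mrpl38 was at an adjusted p of 0.0634 in edgeR, 1 over both genotypes and 0 in the other 4 tests.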
